A study of Mus musculus with 8 samples.

Results

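Trem2, Itgax, Spp1, Gpnmb, Lgals3, Cd9 and Apoe are genes by which lipid-associated macrophages of fat tissue are recognised, and their transcripts were followed here in cultured adherent cells from mouse subcutaneous fat. All 7 genes, of 22907 with a symbol on the array, were found by matching each probe's transcript accession to these mouse symbols; together they had 10 probes. The donor mice were male C57BL/6, 6 weeks old when feeding began, and ate control chow for 12 weeks (C12) or 24 weeks (C24), or a high-fat diet with 60% fat for 12 weeks (HF12) or 24 weeks (HF24). The sample titles call the 12-week groups young and the 24-week groups old: mice fed for 24 weeks were also older, so that feeding time and age cannot be told apart. Cells freed by collagenase from abdominal subcutaneous fat were grown on uncoated plates in medium with 10% serum, passaged 2 or 3 times and taken as adipose-derived mesenchymal stem cells on the basis of adherence and shape; the labels name no sorting step and no marker gate. Each group had 2 one-colour arrays. The labels do not say whether the 2 arrays of a group came from separate animals or cultures, so a p-value here measures only how far 2 such arrays differ, and that difference may be technical.

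TREM2 is a lipid-sensing receptor of macrophages that signals through the adaptor TYROBP and the kinase SYK. In obese fat tissue, macrophages that carry it gather around large or dying adipocytes, take up their lipid, and express genes of lipid handling and lysosomes. ITGAX (CD11c) is an integrin chain that pairs with ITGB2 on myeloid cells. SPP1 (osteopontin) and apolipoprotein E are secreted proteins, galectin-3 (Lgals3) is a sugar-binding lectin, GPNMB is a glycoprotein of lysosomes and the cell surface, and CD9 is a membrane-spanning tetraspanin. Apoe, Cd9, Lgals3 and Spp1 are also made by cells other than macrophages.

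All arrays lay on 1 slide and were read in 1 scan. The 12-week arrays filled slide row 1 and the 24-week arrays row 2, with chow in columns 1 and 2 and high-fat diet in columns 3 and 4 of each row. Slide row and feeding time, and slide column and diet, therefore cannot be told apart. Between 57.4% and 67.1% of an array's probes were well above background, and no array stood apart from its replicate, with r = 0.994 to 0.998 across genes, which are not independent replicates. Every level below is a log2 intensity minus the 75th percentile of its array, so a level of 0 is that percentile. A change is a difference of such levels ± its standard error, from limma with Benjamini-Hochberg adjustment over all 29462 genes tested, and is called when the adjusted p is under 0.05.

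The cells labelled as mesenchymal carried macrophage transcripts in every group. Of 20 macrophage identity genes other than the 7 described here, 18 were well above background on both C12 arrays, 20 on both HF12 arrays, 19 on both C24 arrays and 20 on both HF24 arrays. The fractalkine receptor gene Cx3cr1 was the one not above background on any chow array. The summed level of these 20 genes, in multiples of the array's 75th percentile, was 83.0 to 84.0 in C12, 477 to 486 in HF12, 179 to 186 in C24 and 361 to 369 in HF24. All 12 mesenchymal stromal genes with an unflagged probe were well above background in every group, with sums of 872 to 905, 710 to 737, 795 to 802 and 728 to 754 in the same order. Mature adipocyte genes summed to 754 to 764 in C12, 86.2 to 86.6 in HF12, 7.81 to 8.09 in C24 and 7.93 to 8.29 in HF24. All 8 endothelial genes were well above background on both arrays of every group, as were 5 of 11 lymphocyte genes, 4 to 7 of 10 dendritic cell genes and 6 or 7 of 9 neutrophil and monocyte genes per group. Cd3e, a T cell receptor chain, had means of 1.13 in C12 and C24 and 1.27 in HF24, Cd4 group means of 0.90 to 1.05, and the plasmacytoid dendritic cell gene Siglech of 6.70 to 7.03; these 3 were chosen after their values were seen. Other markers of those types, Cd8a, Ms4a1, Ncr1, Xcr1 and Clec9a, were not above background on either array of any group. The summed levels of the macrophage and mature adipocyte genes varied over the 4 groups. Cd3e and Cd4 were called in no comparison, but other genes of those types were. Between the diets at 24 weeks Cd3d rose by 0.95 ± 0.07 and Nkg7 by 2.75 ± 0.16, while Siglech was lower (−0.23 ± 0.06). The part of any of these markers in the changes below was not tested. In such a mixture of RNA, fewer cells of a type and less RNA per cell cannot be told apart.

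The main probes of all 7 genes were well above background on all 8 arrays. Their arrays did not overlap between any 2 of the 4 groups, as for 26.6% of all genes tested. Trem2 read 2.94 and 2.81 on the C12 arrays, 6.10 and 6.15 on HF12, 4.02 and 4.01 on C24, and 5.09 and 5.07 on HF24. It was thus lowest after 12 weeks of chow, highest after 12 weeks of high-fat diet, and in between at 24 weeks. Itgax read 0.64 and 0.67 on C12, 3.83 and 3.83 on HF12, 1.12 and 1.19 on C24, and 2.44 and 2.34 on HF24. Its groups stood in the same order as those of Trem2: C12, C24, HF24, HF12 from low to high.

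Among the secreted proteins, Spp1 read 4.84 and 4.78 on C12, 7.58 and 7.59 on HF12, 5.32 and 5.39 on C24, and 6.07 and 6.02 on HF24. Again HF12 stood far above the other 3 groups. Apoe read 7.56 and 7.67 on C12, 6.60 and 6.61 on HF12, 4.61 and 4.67 on C24, and 6.02 and 5.99 on HF24. Apoe ran in another order: it was highest in C12 and lowest in C24, with both high-fat groups between.

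Gpnmb read 5.28 and 5.41 on C12, 6.77 on both HF12 arrays, 5.50 and 5.61 on C24, and 5.67 and 5.65 on HF24. Only the HF12 arrays were set apart, and the other 3 groups lay close together. Lgals3 read 7.35 and 7.22 on C12, 7.95 and 8.08 on HF12, 7.75 and 7.70 on C24, and 7.88 on both HF24 arrays. Cd9 read 4.26 and 4.36 on C12, 5.20 on both HF12 arrays, 4.57 and 4.71 on C24, and 5.13 and 4.97 on HF24. With these probes Lgals3 and Cd9 ranged over 0.86 and 0.95 from the lowest to the highest array, and a second Lgals3 probe over 1.52, against 3.35 for Trem2, 3.19 for Itgax, 3.06 for Apoe, 2.81 for Spp1 and 1.49 for Gpnmb.

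**Figure D1:**
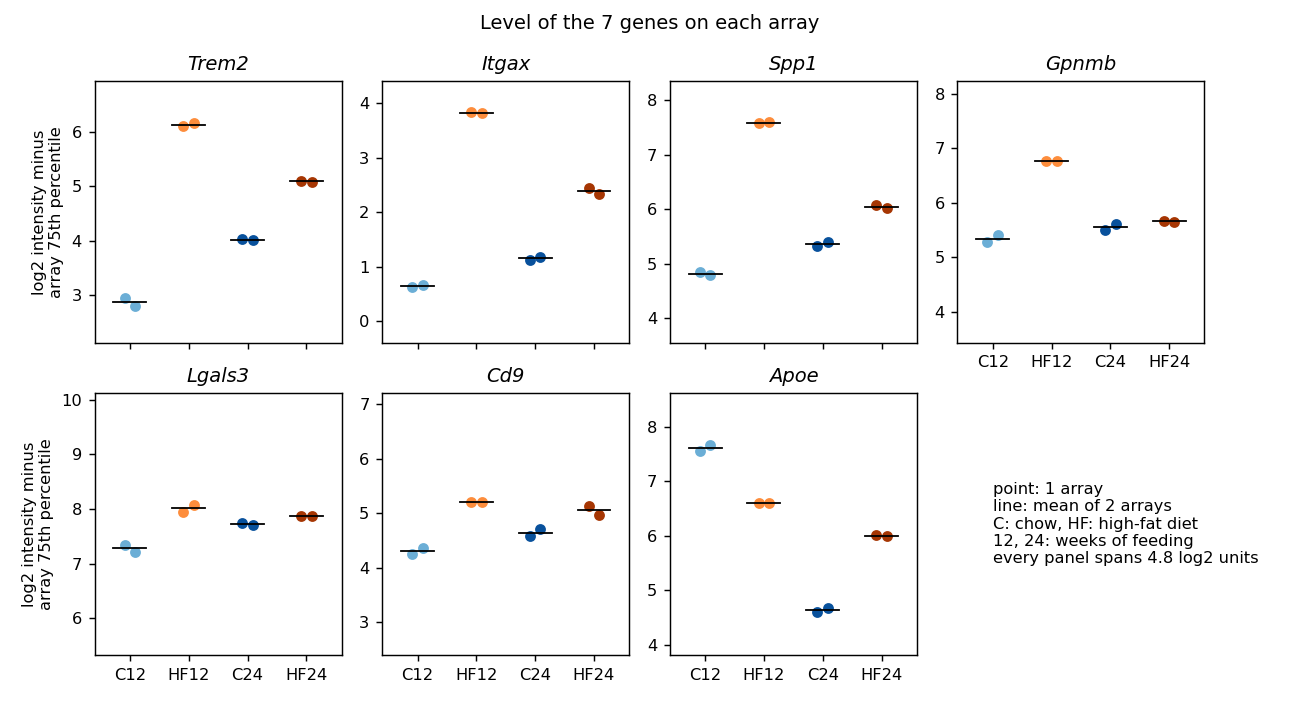
Level of each of the 7 genes (log2 intensity minus the array's 75th percentile) on each of the 8 arrays by group; points are arrays, lines are means of 2 arrays, and every panel spans the same number of log2 units. HF12 is the highest group for 6 genes, while Apoe is highest in C12 (7.56 and 7.67) and lowest in C24 (4.61 and 4.67).

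The first comparison asks how the diets differ after 12 weeks. Trem2 was 9.55-fold higher on the high-fat diet than on chow, Itgax 9.02-fold and Spp1 6.83-fold. Gpnmb (2.69-fold), Cd9 (1.86-fold) and Lgals3 (1.66-fold, or 2.79-fold with its second probe) were also higher, and Apoe was 2.01-fold lower. Of the 7 genes 6 rose and 1 fell, where 13.5% of all genes tested rose and 17.7% fell, 31.1% in all. On the log2 scale the changes were 3.25 ± 0.06 for Trem2 (adjusted p = 1.93e-06), 3.17 ± 0.06 for Itgax (adjusted p = 1.93e-06) and 2.77 ± 0.06 for Spp1 (adjusted p = 2.03e-06). Gpnmb changed by 1.43 ± 0.07 (adjusted p = 4.27e-05), Cd9 by 0.89 ± 0.08 (adjusted p = 6.67e-04), Lgals3 by 0.73 ± 0.07 (adjusted p = 9.29e-04) and Apoe by −1.01 ± 0.06 (adjusted p = 1.22e-04). The median change of the 7 genes was 1.43, against −0.04 over all genes tested. All 7 calls held with each array left out in turn, while the count over all genes, 9172, dropped to 5988 when C12 replicate 1 was removed, to 5399 for HF12 replicate 1 and to 5837 for HF12 replicate 2.

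Macrophage identity genes rose in the same comparison by a median of 3.52, with 19 of 20 called higher and 0 lower. Cx3cr1 was at least 64.1-fold higher, and C1qb, a complement component (4.28 ± 0.06), Fcgr1, a high-affinity antibody receptor (4.47 ± 0.06), and Aif1 (4.81 ± 0.06) had the smallest p beside it. Trem2 and Itgax each exceeded 7 of those 20 genes in size of change, and Spp1 exceeded 4. Gpnmb exceeded 2, Cd9 and Lgals3 1 each, and Apoe lay below all of them. Mature adipocyte genes fell, with 11 of 12 called lower. Examples are Plin4 (−2.45 ± 0.05) and Cidec (−3.79 ± 0.06), whose proteins coat lipid droplets. Of 12 mesenchymal stromal genes 2 rose and 6 fell, and of 8 endothelial genes 1 rose and 4 fell. Of 8 neutrophil and monocyte genes tested 3 rose and 2 fell, and of 7 lymphocyte genes tested 0 rose and 0 fell. Over all genes tested 13.5% rose and 17.7% fell. In the dendritic cell list, included because CD11c also marks those cells, Batf3 (1.83 ± 0.07) was one of 2 that rose among 7 tested, and Irf4 (−2.85 ± 0.10) the 1 that fell.

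The same diet comparison at 24 weeks gave smaller increases. Apoe was now 2.58-fold higher on the high-fat diet, opposite to its direction at 12 weeks. Itgax was 2.35-fold higher, Trem2 2.09-fold, Spp1 1.61-fold and Cd9 1.32-fold. Of the 7 genes 5 rose and 0 fell, where 15.7% of all genes tested rose and 18.8% fell, 34.5% in all. The changes were 1.36 ± 0.06 for Apoe (adjusted p = 1.20e-04), 1.23 ± 0.06 for Itgax (adjusted p = 1.37e-04), 1.06 ± 0.06 for Trem2 (adjusted p = 2.16e-04), 0.69 ± 0.06 for Spp1 (adjusted p = 5.37e-04) and 0.40 ± 0.08 for Cd9 (adjusted p = 0.0137). Gpnmb did not pass, at 0.11 ± 0.07 (adjusted p = 0.286, 95% interval −0.07 to 0.28), and neither did Lgals3, at 0.15 ± 0.07 (adjusted p = 0.160, 95% interval −0.03 to 0.33). The second Lgals3 probe did pass, at 0.31 ± 0.06 (adjusted p = 0.00983). Cd9 no longer passed when C24 replicate 1 (adjusted p = 0.0683) or HF24 replicate 1 (0.0721) was removed, or when the 2 diet groups were fitted alone (0.0571), within a range of 0.00133 to 0.0721 over 17 other settings. The median of the 7 genes was 0.69, against 0.03 over all genes tested and 0.99 for the 20 macrophage identity genes, of which 17 rose and 1 fell.

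Some markers of other cell types also differed between the diets at 24 weeks, beside the changes of the 7 genes. Over all genes tested 15.7% rose and 18.8% fell, 34.5% in all. In total the lymphocyte and mesenchymal stromal calls lie near that last share, so they say little about those cell types. Of 8 endothelial genes 6 rose and 0 fell, Vwf, which encodes von Willebrand factor, by 1.38 ± 0.07. Among 7 lymphocyte genes tested 2 rose and 0 fell: the T cell receptor chain gene Cd3d by 0.95 ± 0.07 and the cytotoxic granule gene Nkg7 by 2.75 ± 0.16, with Nkg7 above background on 1 of the 2 C24 arrays. Of 8 neutrophil and monocyte genes tested 4 rose and 3 fell; the calprotectin genes S100a8 (1.67 ± 0.09) and S100a9 (at least 39.1-fold) were higher and Ly6c2 (−0.75 ± 0.07) lower. Mature adipocyte genes fell in 7 of 12 cases and rose in 2, and of 12 mesenchymal stromal genes 1 rose and 4 fell. The part of these markers in the changes of the 7 genes was not tested.

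**Figure D2:**
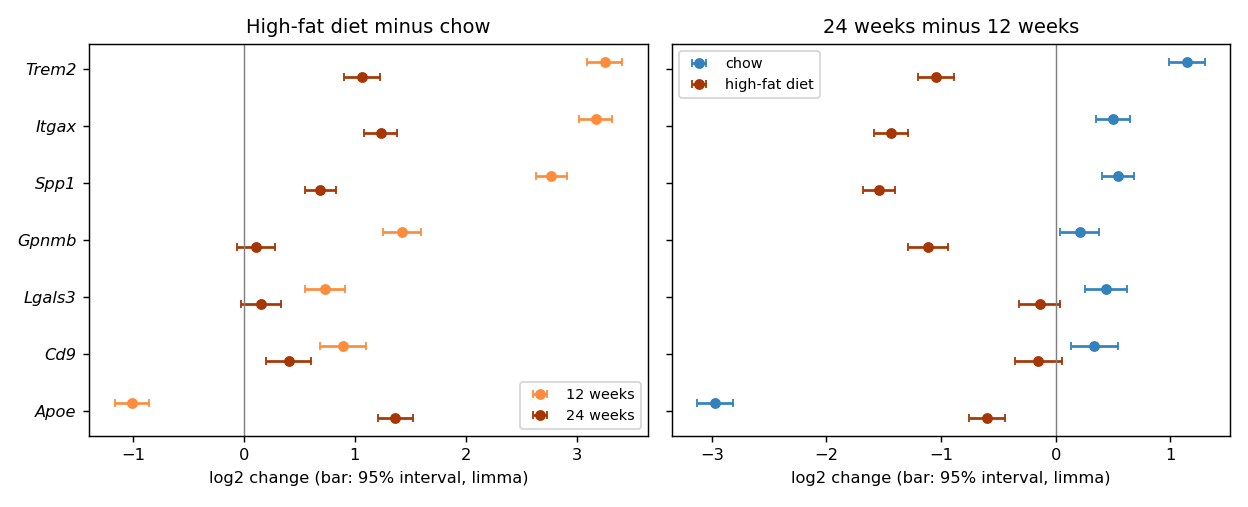
Log2 change of each of the 7 genes with its 95% interval from limma, for high-fat diet minus chow (left, at 12 and at 24 weeks) and for 24 weeks minus 12 weeks (right, on chow and on the high-fat diet). The diet changes of Trem2, Itgax, Spp1 and Gpnmb lie further from 0 at 12 weeks, and Apoe lies at −1.01 at 12 weeks and 1.36 at 24 weeks.

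Whether the diet effect differs between the feeding times was tested as an interaction, the effect at 24 weeks minus that at 12 weeks. It passed for all 7 genes, where 30.3% of all genes tested passed. The difference was −2.19 ± 0.09 for Trem2, −2.08 ± 0.08 for Spp1, −1.94 ± 0.09 for Itgax and −1.32 ± 0.10 for Gpnmb, with adjusted p from 5.47e-05 (Spp1) to 4.22e-04 (Gpnmb). Lgals3 had −0.58 ± 0.10 (adjusted p = 0.00964) and Cd9 −0.49 ± 0.12 (adjusted p = 0.0262). For Apoe the difference was 2.38 ± 0.09 (adjusted p = 5.28e-05), so that 6 genes had the smaller diet effect at 24 weeks and Apoe the higher one. For Cd9 this was not stable: removing 1 array of C12 (replicate 1, adjusted p = 0.0755), of HF12 (replicate 1, 0.0782; replicate 2, 0.0773), of C24 (replicate 2, 0.0719) or of HF24 (replicate 2, 0.0733) took its adjusted p above 0.05. So did keeping dim probes (0.0638) and the replicate block (0.0502), within a range of 0.00370 to 0.0782 over 16 other settings. All 20 macrophage identity genes passed in the downward direction, with a median of −2.33.

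Between 12 and 24 weeks Trem2, Spp1 and Itgax rose on chow and fell on the high-fat diet, and Apoe fell on both. On chow, Trem2 was 2.21-fold higher at 24 weeks, and Spp1 (1.46-fold), Itgax (1.41-fold), Lgals3 (1.36-fold) and Cd9 (1.26-fold) were also higher. Apoe was 7.85-fold lower at 24 weeks on chow, the largest change of Apoe in any comparison made. Of the 7 genes 5 rose and 1 fell, where 23.4% of all genes tested rose and 22.4% fell, 45.9% together. The changes were 1.15 ± 0.06 for Trem2 (adjusted p = 6.84e-05), 0.54 ± 0.06 for Spp1 (adjusted p = 7.50e-04), 0.50 ± 0.06 for Itgax (adjusted p = 0.00131), 0.44 ± 0.07 for Lgals3 (adjusted p = 0.00452), 0.34 ± 0.08 for Cd9 (adjusted p = 0.0191) and −2.97 ± 0.06 for Apoe (adjusted p = 3.79e-06). Gpnmb missed the threshold at 0.21 ± 0.07 (adjusted p = 0.0518, with 0.0132 to 0.216 over 17 other settings). Cd9 missed it when C12 replicate 1 (adjusted p = 0.0884) or C24 replicate 2 (0.0922) was removed and when the chow groups were fitted alone (0.0514), within a range of 0.00263 to 0.0922. Mature adipocyte genes had a median of −5.69 in this comparison, with 11 of 12 lower, and macrophage identity genes a median of 1.78, with 18 of 20 higher and 1 lower. Of 8 endothelial genes 7 rose and 1 fell, and of 12 mesenchymal stromal genes 4 rose and 3 fell.

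Cells from 24 weeks of high-fat diet had lower levels than those from 12 weeks. Spp1 was 2.90-fold lower, Itgax 2.71-fold, Gpnmb 2.16-fold, Trem2 2.06-fold and Apoe 1.51-fold. Of the 7 genes 5 fell and 0 rose, where 24.1% of all genes tested fell and 22.8% rose, 46.9% in all. The changes were −1.54 ± 0.06 for Spp1 (adjusted p = 2.23e-05), −1.44 ± 0.06 for Itgax (adjusted p = 3.47e-05), −1.11 ± 0.07 for Gpnmb (adjusted p = 1.38e-04), −1.04 ± 0.06 for Trem2 (adjusted p = 1.32e-04) and −0.60 ± 0.06 for Apoe (adjusted p = 9.18e-04). Lgals3 (−0.14 ± 0.07, adjusted p = 0.175) and Cd9 (−0.15 ± 0.08, adjusted p = 0.185) did not pass. Under quantile normalization both passed, Lgals3 at −0.29 (adjusted p = 0.0110) and Cd9 at −0.31 (adjusted p = 0.0361). The second Lgals3 probe passed as well, at −0.48 ± 0.06 (adjusted p = 0.00159). Of the 20 macrophage identity genes 15 fell and 3 rose, with a median of −0.50, and Spp1 and Itgax lay below every one of them. Macrophage transcripts did not all fall together. Of 7 resident and perivascular macrophage genes tested 3 rose and 3 fell, with a median of 0.39. F13a1 (2.19 ± 0.08) was among those higher and Mrc1 (−1.45 ± 0.06) among those lower. Other cell type markers differed here as well: of 8 endothelial genes 7 rose and 0 fell, with a median of 1.34, and of 12 mesenchymal stromal genes 7 rose and 3 fell. Mature adipocyte genes had a median of −2.64, with 9 of 12 lower and 1 higher, and S100a9 was at least 61.9-fold higher. Their part in the changes of the 7 genes was not tested.

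Each gene's 4 group levels can be put in order with these tests, since the neighbouring groups in each order are groups compared directly. For Trem2, Spp1 and Itgax the order was C12, C24, HF24, HF12, and every step passed. In Gpnmb only the step from HF24 to HF12 passed. For Lgals3 and Cd9 the order was the same, the step from C12 to C24 passed for both, that from C24 to HF24 passed for Cd9 only, and that from HF24 to HF12 passed for neither. With the second Lgals3 probe all 3 steps passed. Apoe ran C24, HF24, HF12, C12, and every step passed.

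Over the 8 arrays, which fall into 4 groups of 2, the levels of Trem2, Spp1, Itgax, Gpnmb, Cd9 and Lgals3 correlated with each other at r = 0.737 (Gpnmb and Lgals3) to 0.991 (Spp1 and Itgax). With Apoe their r lay between −0.448 (Lgals3) and 0.0677 (Gpnmb). The genes with a symbol whose levels followed those of Trem2 most closely over the 8 arrays were Snx2, the adaptor gene Hcst and the Toll-like receptor gene Tlr13 (each r = 0.999). For Itgax they were Evl (r = 0.999), Rgs10 (0.998) and Ptchd1 (0.998), and for Spp1 Slc25a13 (0.999), Slc9a7 (0.997) and the lysosomal reductase gene Ifi30 (0.996). For Gpnmb they were Fut7, the brain-type creatine kinase gene Ckb (each 0.995) and Btbd17 (0.994). Lgals3 was followed by A630001G21Rik (0.995), the oxidase subunit gene Cybb (0.994) and Xlr4b (0.994), and Cd9 by Plekhm3 (0.998), Naip1 and Stxbp3 (each 0.995). For Apoe they were Psd (0.995), Narf (0.994) and Nudt18 (0.992). Likeness of this kind takes no account of size: Snx2 changed by 0.65 between the diets at 12 weeks, where Trem2 changed by 3.25. Xlr4b and Naip1 have near-identical family members that 1 probe may not tell apart.

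The list for TREM2 signalling and shedding holds the adaptors of TREM2, downstream kinases and the ADAM proteases. Most of its members rose with high-fat feeding at both times, but neither protease gene passed between the diets. Adam10 changed by 0.04 ± 0.07 at 12 weeks and by 0.22 ± 0.07 at 24 weeks. Adam17 changed by −0.25 ± 0.12 at 12 weeks and by −0.05 ± 0.12 at 24 weeks. Over all genes tested 13.5% rose and 17.7% fell on the high-fat diet at 12 weeks, and 15.7% and 18.8% at 24 weeks. At 12 weeks 7 of 10 TREM2 signalling and shedding genes rose and 1 fell on the high-fat diet, with a median of 2.83. Examples of those that rose are the adaptor Tyrobp (3.05 ± 0.07), Syk (2.81 ± 0.06), the phospholipase Plcg2 (3.03 ± 0.06) and the exchange factor Vav1 (3.65 ± 0.08). Pik3r1 was the 1 that fell (−0.46 ± 0.08). At 24 weeks 7 of 10 rose and 0 fell, with a median of 0.67, and with Plcg2 (1.08 ± 0.06), the phosphatase gene Inpp5d (1.06 ± 0.08), Hcst (1.00 ± 0.07) and Tyrobp (0.92 ± 0.07) as examples. Between 12 and 24 weeks 6 of 10 rose and 1 fell on chow, where 23.4% of all genes tested rose and 22.4% fell. On the high-fat diet 1 rose and 8 fell, where 22.8% of all genes tested rose and 24.1% fell. Tyrobp (−0.86 ± 0.07) and Syk (−0.84 ± 0.06) were among the 8 that fell. Tyrobp stands in the macrophage list as well.

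The receptors and partners of the 7 proteins include integrins, lipoprotein receptors and tetraspanins. At 12 weeks 3 of 14 rose and 3 fell on the high-fat diet, with a median of 0.01. These counts lie near the shares over all genes tested, 13.5% higher and 17.7% lower. Itgb2, the partner chain of ITGAX, rose by 3.31 ± 0.09 at 12 weeks and by 0.63 ± 0.09 at 24 weeks, fell by 1.26 on the log2 scale from 12 to 24 weeks of high-fat diet, and so followed the order of Itgax. Among the partners of CD9, Cd81 was lower (−0.54 ± 0.06) and Cd82 higher (0.44 ± 0.07) at 12 weeks, and Ptgfrn was lower (−0.66 ± 0.09). At 24 weeks 3 of 14 rose and 1 fell, with a median of −0.02, where 15.7% of all genes tested rose and 18.8% fell. The beta-3 integrin gene Itgb3, whose product binds osteopontin, rose from 12 to 24 weeks on chow (0.86 ± 0.05) and on the high-fat diet (0.84 ± 0.05), while Spp1 rose on chow and fell on the high-fat diet.

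Other genes reported for lipid-associated macrophages went in both directions. At 12 weeks 11 of 21 rose and 6 fell on the high-fat diet, with a median of 0.24, where 13.5% of all genes tested rose and 17.7% fell. The macrophage elastase Mmp12 (2.83 ± 0.08) and the proton pump subunit Atp6v0d2 (2.73 ± 0.05) rose, while the fatty acid binding protein gene Fabp4 (−2.18 ± 0.06), which adipocytes also express strongly, and the apolipoprotein gene Apoc1 (−2.75 ± 0.08) fell. At 24 weeks 6 of 21 rose and 2 fell, with a median of 0.16, where 15.7% of all genes tested rose and 18.8% fell. The phosphatase gene Acp5 (1.32 ± 0.09) and the cholesterol exporter gene Abcg1 (0.73 ± 0.06) rose, and Apoc1 (−1.67 ± 0.08) and the lipoprotein lipase gene Lpl (−0.88 ± 0.06) fell. From 12 to 24 weeks of high-fat diet 16 of 21 fell and 0 rose, with a median of −0.43, among them the lysosomal acid lipase gene Lipa (−1.50 ± 0.06), Atp6v0d2 (−1.47 ± 0.05) and Lpl (−1.17 ± 0.06). On chow 5 rose and 7 fell over the same time, with Apoc1 (−4.37 ± 0.08) and Fabp4 (−2.72 ± 0.06) lower and Atp6v0d2 (1.08 ± 0.05) higher. Over all genes tested 22.8% rose and 24.1% fell on the high-fat diet between these times, and 23.4% and 22.4% on chow. The chow counts of this list lie near those shares. Of the 9 resident and perivascular macrophage genes 7 were tested, and 6 rose and 1 fell at 12 weeks on the high-fat diet, against 3 and 2 at 24 weeks. The platelet factor gene Pf4 (3.92 ± 0.05) and the mannose receptor gene Mrc1 (3.49 ± 0.06) were higher at 12 weeks, and at 24 weeks Pf4 was higher (1.58 ± 0.05) and Lyve1 lower (−1.44 ± 0.10).

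**Figure D3:**
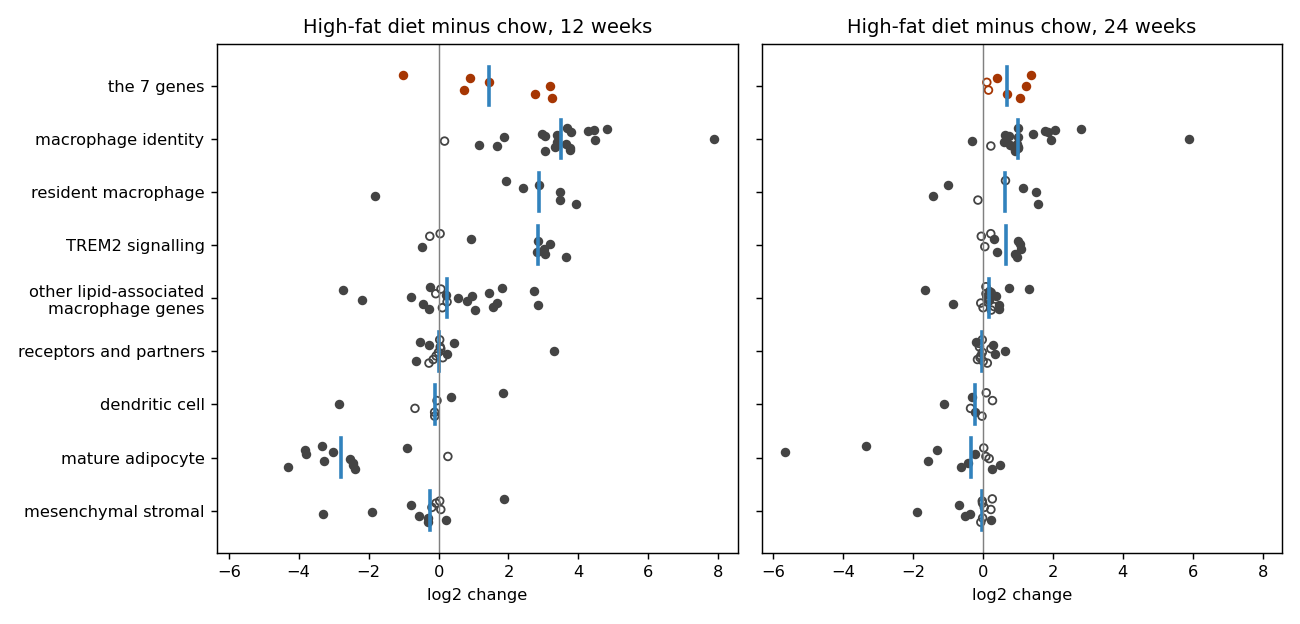
Log2 change, high-fat diet minus chow, of every tested gene of 9 lists at 12 weeks (left) and 24 weeks (right); filled points passed the adjusted p of 0.05, open points did not, and blue bars are list medians. Genes below background in 1 group are drawn at their fitted value. At 12 weeks the medians are 1.43 for the 7 genes, 3.52 for macrophage identity, 2.83 for TREM2 signalling and −2.78 for mature adipocyte genes.

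The probes of a gene did not always give the same size of change. Apoe had 2 probes, for different transcripts, and they moved together: the second gave −1.07 ± 0.09 at 12 weeks and 1.42 ± 0.09 at 24 weeks between the diets, and −3.15 ± 0.09 between the chow groups. Lgals3 is represented above by the probe with the higher signal, whose intensity reached 247216 on an HF12 array, where the scanner's saturation value was 778504. The other Lgals3 probe, spotted 10 times, was left out of the values above because 4 of its spot readings had an outlier flag. Fitted on its unflagged spots, it changed by 1.48 ± 0.06 between the diets at 12 weeks, against 0.73 ± 0.07 for the first. It also passed in comparisons where the first did not, at 0.31 ± 0.06 (adjusted p = 0.00983) between the diets at 24 weeks and at −0.48 ± 0.06 (adjusted p = 0.00159) between the high-fat groups. Itgax had a second, dim probe, above background on both HF12 arrays and 1 C24 array; it read −3.77 and −4.20 on HF12 and −7.08 and −4.05 on C24. On this probe HF12 was at least 3.08-fold higher than C12, whose arrays were both not well above background. The probe passed the background filter only through HF12, so it adds no separate support for the rise of Itgax. No fold between the diets at 24 weeks is given for it, since neither HF24 array was above background and the bound is under 1.

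**Figure D4:**
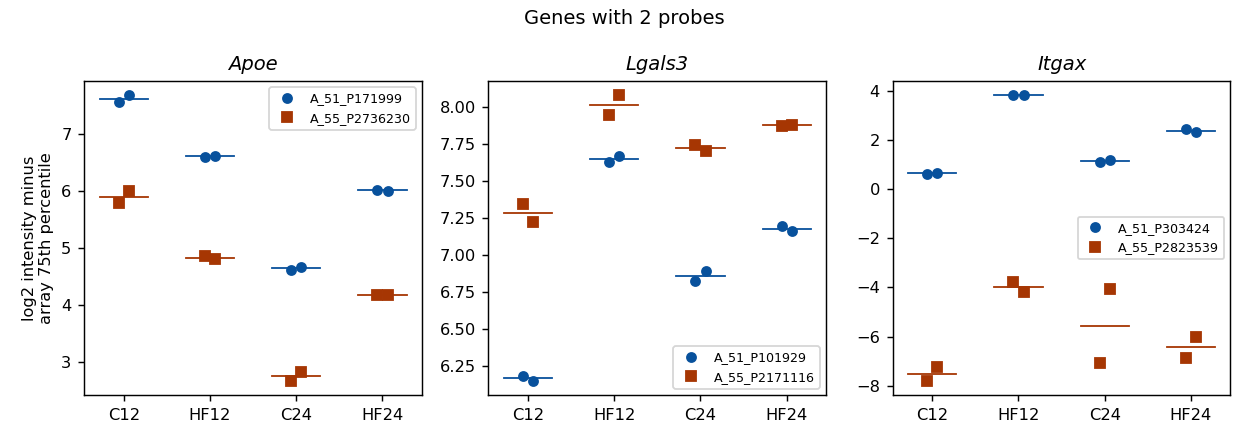
Level (log2 intensity minus the array's 75th percentile) on each array for the genes with 2 probes; points are arrays and lines are means of 2 arrays, with 1 colour and shape per probe. The Apoe probes run in parallel, the Lgals3 probe spotted 10 times spans a wider range (6.15 to 7.67) than the other (7.22 to 8.08), and the dim Itgax probe scatters in C24.

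The promoters of the 4 genes with the largest increases at 12 weeks by their main probes and of Apoe, the only one that fell, are shown. Those of Cd9 and Lgals3, which also followed Trem2 (r = 0.973 and 0.952), are not printed. The sequences are RefSeq's on GRCm38.p6, 5′ to 3′ on the gene's strand, and hold the 250 bases before the annotated start; all 7 genes matched, Spp1 with 2 starts and Apoe with 3, of which the most upstream is printed. Capitals mark matches, on either strand, to the AP-1 motif TGACTCA, the PU.1 motif GAGGAAGT or the RUNX motif TGTGGT; the E-box CACGTG and the LXR repeat, a pair of AGGTCA sites 4 bases apart, were searched too.
Trem2 (chr17:48346151-48346400, plus strand): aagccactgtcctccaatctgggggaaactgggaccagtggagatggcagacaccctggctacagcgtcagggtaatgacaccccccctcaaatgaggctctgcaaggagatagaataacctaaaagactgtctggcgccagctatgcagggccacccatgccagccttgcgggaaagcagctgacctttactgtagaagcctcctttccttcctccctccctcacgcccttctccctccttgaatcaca
Itgax (chr7:128129300-128129549, plus strand): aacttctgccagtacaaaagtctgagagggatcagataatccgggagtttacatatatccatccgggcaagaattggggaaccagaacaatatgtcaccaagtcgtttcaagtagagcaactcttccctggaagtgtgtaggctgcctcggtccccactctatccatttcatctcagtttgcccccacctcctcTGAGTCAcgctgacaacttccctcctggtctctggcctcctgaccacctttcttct
Spp1 (chr5:104434861-104435110, plus strand): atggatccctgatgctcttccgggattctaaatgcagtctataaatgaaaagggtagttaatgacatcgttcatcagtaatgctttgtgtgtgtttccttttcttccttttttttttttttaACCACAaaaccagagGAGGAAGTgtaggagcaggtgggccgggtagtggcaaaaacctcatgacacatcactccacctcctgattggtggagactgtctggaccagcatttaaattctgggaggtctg
Gpnmb (chr6:49036268-49036517, plus strand): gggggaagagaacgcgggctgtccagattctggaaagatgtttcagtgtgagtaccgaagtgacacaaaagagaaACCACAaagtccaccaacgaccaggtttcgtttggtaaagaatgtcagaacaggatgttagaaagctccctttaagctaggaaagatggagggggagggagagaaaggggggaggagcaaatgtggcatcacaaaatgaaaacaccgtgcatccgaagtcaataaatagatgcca
Apoe (chr7:19699189-19699438, minus strand): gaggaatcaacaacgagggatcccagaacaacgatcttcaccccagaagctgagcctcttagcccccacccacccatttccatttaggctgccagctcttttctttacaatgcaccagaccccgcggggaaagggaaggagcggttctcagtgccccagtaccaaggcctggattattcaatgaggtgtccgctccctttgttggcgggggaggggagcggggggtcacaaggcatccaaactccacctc

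Spp1 held 1 PU.1 match, 113 to 106 bases before its start, and 1 RUNX match, Gpnmb held 1 RUNX match and Itgax 1 AP-1 match, 56 to 50 bases before its start. No match overlapped another, and the E-box and the LXR repeat were in none of these windows. Trem2, Apoe, Lgals3 and Cd9 had no match to any of these letters in any of their windows. Among 32851 promoter windows of the same length, 4.46% held the AP-1 motif, 2.44% the PU.1 motif, 6.02% the E-box, 14.0% the RUNX motif and 0.0152% the LXR repeat. A match is a run of letters and was not tested as a binding site.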

How the data were processed

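Each of 8 one-colour Agilent arrays measured total RNA of 1 sample. Per the file headers, the authors read spots with version 11.0.1.1 of Agilent's Feature Extraction. Their deposited processed intensity is background-subtracted and spatially detrended within its array, with a positive surrogate for low values, and the deposited median and background intensity are unprocessed brightness. The well-above-background and outlier flags, other values of 0 or 1, are deposited as such per the file headers. The authors' deposited value table holds log2 values, each the log2 processed intensity plus 1 constant per array (−9.99 to −9.79); the rule for the constant is not given in the sources used here. The headers name build mm9, so no gene coordinates are printed, and promoter windows carry the build of their own table.

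Of 56605 probes, 367 with an outlier flag on any spot were left out. Log2 values of a probe's spots were averaged and set relative to the 75th percentile of their array. Probes well above background on both arrays of at least 1 group (37476) entered, 1 per gene, the one with the highest mean, which gave 29462 genes or unnamed features, 16702 with a symbol. Accessions were matched to RefSeq names of GRCm38.p6 (58.4% of probes).

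All 8 arrays entered 1 model of the 4 group means in limma 3.58.1 under R 4.3.3 (4 residual and 1.90 prior degrees of freedom); tests were two-sided and checked on simulated data. Python 3.11.15 with pandas 2.3.3 and matplotlib 3.10.9 did the rest. Named genes are the 7 members, up to 4 called genes with the smallest p per list and comparison, and the 3 genes most like each member by Pearson r. Adam10, Adam17 and Pik3r1 were named as well, as members of their list that did not rise between the diets. The members and lists were chosen with earlier results of these data known. A gene below background in 1 group is given as at least N-fold: the brighter group's mean over a bound that is, on each dim array, the lowest value well above background or, where higher, the dim probe's. Alternatives were other normalizations, the value table, other probe filters and probes, an intensity trend, fewer groups, a replicate block and leaving out each array.

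Same-numbered arrays deviated from their group means with r of −0.0819 to 0.166 between groups. With 2 arrays per group these r cannot show whether same-numbered arrays share an animal, batch or day, and the labels do not say. No pairing was used in the main model.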

Additional observations from a re-analysis of the deposited data

Results flagged for a closer look

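In the main fit the diet effect differed between 12 and 24 weeks, by limma's interaction term, for each of the 7 genes. For Cd9 this did not hold when dim probes were kept, with the replicate block, or with some single arrays left out. High-fat diet minus chow at 24 weeks, less the same at 12 weeks, was −2.19 for Trem2, −2.08 for Spp1, −1.94 for Itgax, −1.32 for Gpnmb, −0.58 for Lgals3, −0.49 for Cd9 and 2.38 for Apoe, on the log2 scale with 2 arrays per group. For Apoe the 2 diet effects had opposite signs, −1.01 and 1.36. For the other 6 genes both were above 0, although those of Gpnmb and Lgals3 at 24 weeks did not pass with their main probes. The second Lgals3 probe did pass at 24 weeks. Of all genes tested, 30.3% passed this test.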

How the results depend on the processing

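The direction of every gene's change in every comparison was the same under all alternatives that used its main probe. The dim second Itgax probe gave −0.87 between the diets at 24 weeks (adjusted p = 0.514), against 1.23, with neither HF24 array above background. Over the arrays left out in turn, the count of all genes called between the diets at 12 weeks ran from 5399 to 8710, against 9172. With replicate number as a block, which the labels do not call a pairing, that count was 7990. Of the calls for the 7 genes the Cd9 interaction was then lost (adjusted p = 0.0502). Gpnmb passed between the chow groups with an intensity trend (adjusted p = 0.0132), among genes above background on all arrays (0.0370) and without C12 replicate 2 (0.0418). Between the high-fat groups normexp gave Lgals3 −0.27 (adjusted p = 0.0123) and Cd9 −0.30 (0.0257). Keeping flagged probes by their unflagged spots, chosen after seeing the data, changed no call of the 7 genes with 1 probe per gene. That outcome says little, since no main probe had a flagged spot and the flagged Lgals3 probe is dimmer than the main one. Normexp used the median spot signal, and a mean signal was not used here. Precision is limited by 2 arrays per group.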

Other observations

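Apoe and Apoc1, which lie near each other in an apolipoprotein gene cluster, did not move alike in every comparison. Both fell on the high-fat diet at 12 weeks (Apoe −1.01 ± 0.06, Apoc1 −2.75 ± 0.08) and from 12 to 24 weeks on chow (Apoe −2.97 ± 0.06, Apoc1 −4.37 ± 0.08). Between the diets at 24 weeks Apoe rose by 1.36 ± 0.06 and Apoc1 fell by 1.67 on the log2 scale, each past limma's adjusted p of 0.05. The difference between the 2 genes was not tested.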
